A study of Mus musculus with 6 samples.

Results

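The 10 genes described here act in cholesterol synthesis, 9 as enzymes of the pathway and 1, Insig1, as the protein that holds the pathway's transcription factors back. They are textbook targets of SREBP2, a membrane-bound factor that site-1 protease, the product of Mbtps1, must cut before it can enter the nucleus. They were picked by name, Hmgcs1, Mvd, Idi1, Fdps, Fdft1, Sqle, Lss, Cyp51, Nsdhl and Insig1, and each was read from the feature that the platform annotation gives to that symbol alone. All 10 had 1 such feature, among 65956 features with a value, and all 10 lay above the array median on all 6 arrays. Gene expression was measured on Affymetrix whole-transcript arrays in soleus, a slow calf muscle, of male mice aged 39 to 41 weeks. The 3 Control mice were littermates labelled wild type, and whether they carried a floxed allele or the Cre is not stated in the labels. The 3 cKO mice were labelled as a DMP1 Cre knockout of Mbtps1, so the deletion follows the activity of Dmp1 regulatory sequence, which is best known from the osteocytes of bone. Each mouse gave 1 array, made from 100 ng of RNA, and the RNA of whole muscle pools all its cell types. In such tissue fewer cells of a type and less RNA per cell cannot be told apart.

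Cells make cholesterol from acetyl-CoA by way of mevalonate, farnesyl diphosphate, squalene and lanosterol. When sterols in the endoplasmic reticulum run low, the escort protein SCAP carries SREBP2 to the Golgi, where site-1 protease and then site-2 protease release its active part. When sterols are plentiful, INSIG proteins hold SCAP back, and the enzymes of the pathway are transcribed less. Skeletal muscle can make its own cholesterol for membranes, and the same early steps supply the lipids that anchor proteins and the side chain of coenzyme Q.

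Promoter sequence, which the array did not measure, shows what these genes share beyond their names. RefSeq promoters on GRCm38.p6 were found for 7 of the 10 genes, and the 250 bases before the start were searched on both strands. The letters TCACNCCAC, a common form of the sterol regulatory element that SREBPs bind, were in 1 of the 7, Hmgcs1, and in 1.05% of 32851 promoters of that length. The letters CCAAT, the box of NF-Y, a factor that works beside SREBPs, were in all 7 and in 33.8% of all promoters. The GC box GGGCGG was in all 7 against 32.7%, and the E-box CACGTG was in 1, Insig1, against 6.02%. A match is a description of letters, not of a bound site. The promoters of Hmgcs1 (chr13:119690101-119690350, plus strand), of Nsdhl (chrX:72918271-72918520, plus strand) and of Insig1 (chr5:28071162-28071411, plus strand) are printed 5′ to 3′. They are the promoter with the sterol element, that of the gene with the smallest p between genotypes, and that of the pathway's brake. Capitals mark the sterol regulatory element letters and the CCAAT box, which reads ATTGG where it lies on the opposite strand.
Hmgcs1: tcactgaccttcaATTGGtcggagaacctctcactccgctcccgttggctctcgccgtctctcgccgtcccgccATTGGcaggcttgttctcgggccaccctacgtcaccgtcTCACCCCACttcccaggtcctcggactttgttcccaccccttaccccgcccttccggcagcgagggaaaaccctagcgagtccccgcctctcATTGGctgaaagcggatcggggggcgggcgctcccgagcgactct
Nsdhl: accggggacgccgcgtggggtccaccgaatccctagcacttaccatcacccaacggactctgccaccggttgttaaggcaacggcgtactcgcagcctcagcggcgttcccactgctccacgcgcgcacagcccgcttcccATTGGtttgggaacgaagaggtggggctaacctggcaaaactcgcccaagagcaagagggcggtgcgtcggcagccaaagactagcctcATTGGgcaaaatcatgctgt
Insig1: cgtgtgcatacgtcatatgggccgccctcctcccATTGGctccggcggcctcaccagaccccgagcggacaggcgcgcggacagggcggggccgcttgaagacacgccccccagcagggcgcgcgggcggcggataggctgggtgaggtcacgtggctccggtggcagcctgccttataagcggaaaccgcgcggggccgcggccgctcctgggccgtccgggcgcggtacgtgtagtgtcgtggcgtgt
In Hmgcs1 the sterol element began 137 bases before the start, between CCAAT boxes that began 176 and 45 bases before it. Nsdhl held CCAAT boxes 109 and 20 bases before its start, and Insig1 a single one at 216.

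No difference between genotypes was called for any of these genes. Setting cKO against Control asks what loss of Mbtps1 from cells with Dmp1 activity does to the muscle. Across the 33334 features in the limma fit, none (0, or 0.00%) reached an adjusted p of 0.05, and an unadjusted p under 0.05 was found for 1501, or 4.50%. Of the 10 genes 0 passed that threshold, each at an adjusted p of 0.999, and 1, Nsdhl, came under 0.05 before adjustment. Read against the 4.50% of all features, 1 gene of 10 is not a result about the group. The median difference over the 10 genes, cKO minus Control, was 0.04 log2 units, beside 0.07 over all features tested. Of the 10 genes 6 were nominally higher and 4 lower in cKO, where 65.8% of all features were higher. After quantile normalization 3 were higher and 7 lower, with a median of -0.05, beside -0.0038 over all features, of which 49.1% were higher. The limma 95% intervals of the single genes reached from -0.60 at the lowest to 0.63 log2 units at the highest, so each excluded a doubling or a halving of the deposited signal.

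**Figure D1:**
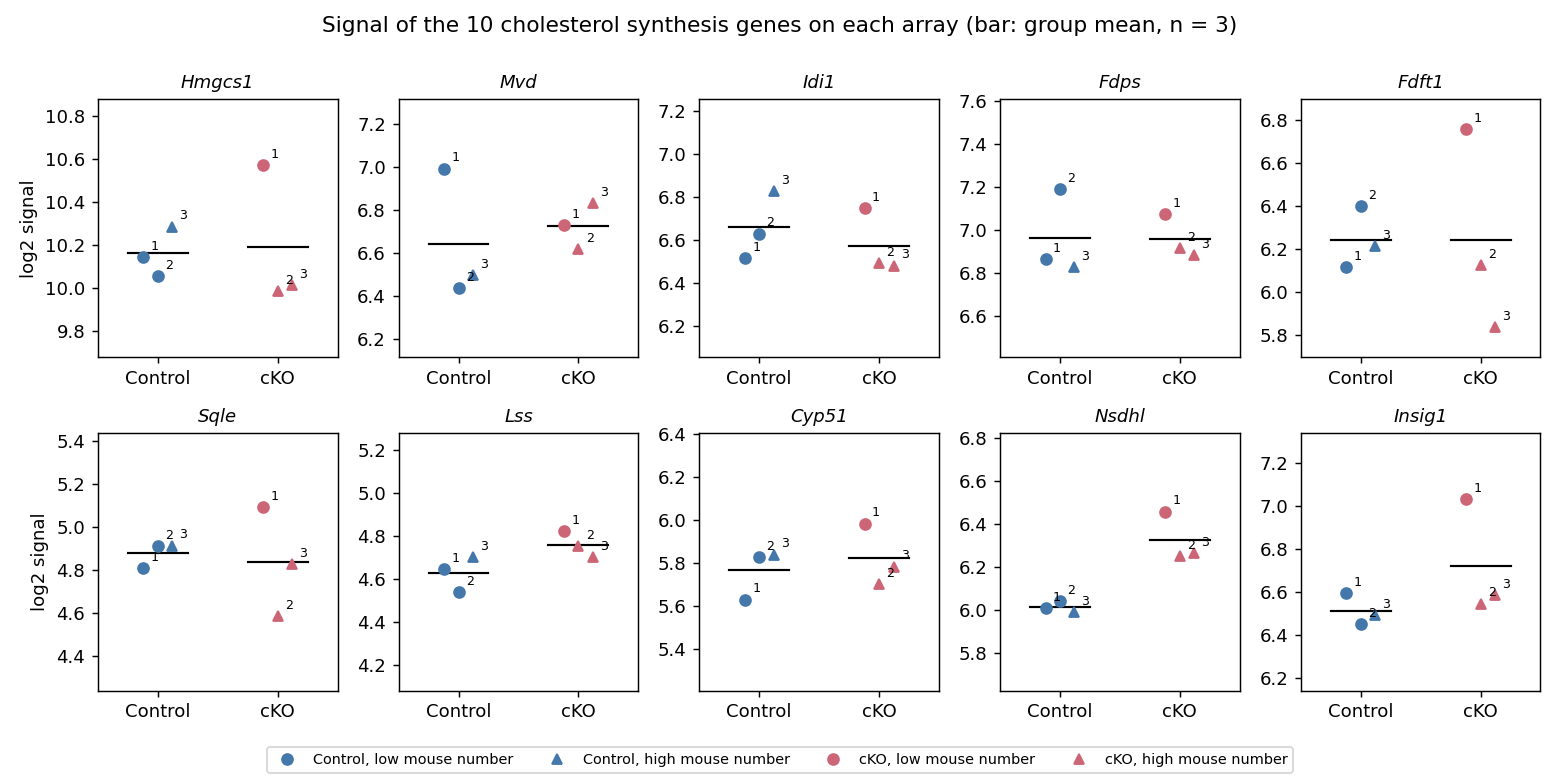
Each panel shows 1 gene, with its log2 signal on the 6 arrays, numbered by replicate, on an axis of equal span; circles are mice with low numbers, triangles mice with high numbers, and bars are means of 3 arrays. The groups overlap in 8 panels, and cKO 1 is the highest array in 7.

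The enzymes of the mevalonate stage did not differ beyond the spread between mice. Hmgcs1, which makes the precursor HMG-CoA, had log2 signals of 10.14, 10.06 and 10.28 on the Control arrays, in the order of replicates 1 to 3, and of 10.57, 9.98 and 10.01 on the cKO arrays in the same order. Of the cKO arrays, cKO 2 and cKO 3 lay below all Control arrays, and cKO 1 lay above them. Its difference was 0.03 log2 units (SE 0.22, limma adjusted p = 0.999). Mvd, which forms isopentenyl diphosphate from mevalonate diphosphate, stood at 6.99, 6.44 and 6.50 in Control and at 6.73, 6.62 and 6.835 in cKO. Control 1 was its highest array, and the groups overlapped, with a difference of 0.08 (SE 0.19). Idi1, the isomerase that interconverts the isoprenoid building blocks, gave 6.51, 6.63 and 6.83 in Control and 6.75, 6.49 and 6.48 in cKO. Its difference of -0.08 (SE 0.16) was the lowest of the 10, with Control 3 highest and cKO 3 lowest.

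On the deposited scale Fdps, Fdft1 and Sqle, the enzymes around farnesyl diphosphate and squalene, gave group means that were nearly equal. Fdps, the farnesyl diphosphate synthase, had signals of 6.87, 7.19 and 6.83 in Control and 7.07, 6.91 and 6.88 in cKO. All cKO arrays lay inside the span of the Control arrays, and the difference was -0.0025 log2 units (SE 0.16). Fdft1, the squalene synthase that commits the pathway to sterols, was at 6.12, 6.40 and 6.21 in Control and at 6.76, 6.13 and 5.84 in cKO. It varied the most of the 10 genes, over 0.92 log2 units, and its highest and lowest arrays, cKO 1 and cKO 3, were of the same genotype. The Fdft1 difference was -0.0022 (SE 0.25). Sqle, the epoxidase of squalene and a control point of the pathway, read 4.81, 4.91 and 4.91 in Control and 5.09, 4.59 and 4.83 in cKO. Its cKO arrays spread to both sides of the Control arrays, with a difference of -0.04 (SE 0.16). After quantile normalization the differences were -0.14 for Fdps, -0.10 for Fdft1 and -0.11 for Sqle, each at a limma adjusted p of 0.990.

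Of the enzymes from squalene epoxide to sterols, Lss and Nsdhl were the genes whose groups did not overlap on the deposited scale. Both had all cKO arrays above all Control arrays, 2 of 10 genes, where 11.0% of all features did not overlap in either direction and 8.95% had cKO above Control. Lss, the cyclase that forms lanosterol, was at 4.64, 4.54 and 4.70 in Control and at 4.82, 4.75 and 4.70 in cKO. The lowest cKO array stood at 4.7030 and the highest Control array at 4.7006, so the groups of Lss were apart by less than any spread between mice. Its difference was 0.13 log2 units (SE 0.11, limma adjusted p = 0.999). After quantile normalization the groups of Lss overlapped and its difference was 0.06. On that scale Nsdhl, with cKO above Control, and Idi1, with cKO below Control, were the 2 of 10 genes without overlap, beside 9.97% of all features. Cyp51, the demethylase of lanosterol, had 5.63, 5.83 and 5.84 in Control and 5.98, 5.70 and 5.78 in cKO, overlapping groups with a difference of 0.06 (SE 0.14).

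Nsdhl, a dehydrogenase that helps to strip methyl groups from the sterol ring, differed the most. Its Control arrays were close together, at 6.01, 6.04 and 5.99 (mean 6.01 ± 0.03, SD, n = 3), and its cKO arrays stood at 6.46, 6.25 and 6.27 (mean 6.32 ± 0.11, SD, n = 3). The difference was 0.31 log2 units (SE 0.13, 95% interval 0.0007 to 0.62), or 1.24-fold. It had an unadjusted p of 0.0496 and an adjusted p of 0.999 by limma, and the adjusted p ran from 0.367 to 0.9999 over 17 alternatives. The unadjusted limma p was under 0.05 in 6 of the 17. After quantile normalization the difference was 0.20, with an unadjusted p of 0.147. With the replicate number as a block the unadjusted p was 0.108. Without any 1 of the 6 arrays the difference lay between 0.24 and 0.35. Nsdhl thus had the same sign in every fit but no adjusted call in any of those run. Of 10 markers of tendon cells 9 were tested, and all 9 were nominally higher in cKO (8 after quantile normalization), beside 65.8% of all features. Before adjustment 6 of these markers came under 0.05 in limma, beside 4.50% of all features, and after it 0. The summed linear signals of the tendon markers were 1010 to 2988 in Control and 2899 to 6352 in cKO. Most of each sum came from 1 marker, Thbs4, so the sums do not stand for the list. Thbs4 was at 9.37, 9.61 and 11.22 log2 units in Control and at 10.93, 11.10 and 12.35 in cKO, with overlapping groups. The part of the tendon markers in the difference of Nsdhl was not tested.

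Insig1, which retains SCAP and is itself switched on by SREBP2, had signals of 6.60, 6.45 and 6.50 in Control and 7.03, 6.55 and 6.59 in cKO. The other 2 cKO arrays lay within the span of Control, and cKO 1 lay above it. The difference was 0.21 log2 units (SE 0.18, 95% interval -0.21 to 0.63, limma adjusted p = 0.999), with 0.09 after quantile normalization and 0.05 without cKO 1.

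**Figure D2:**
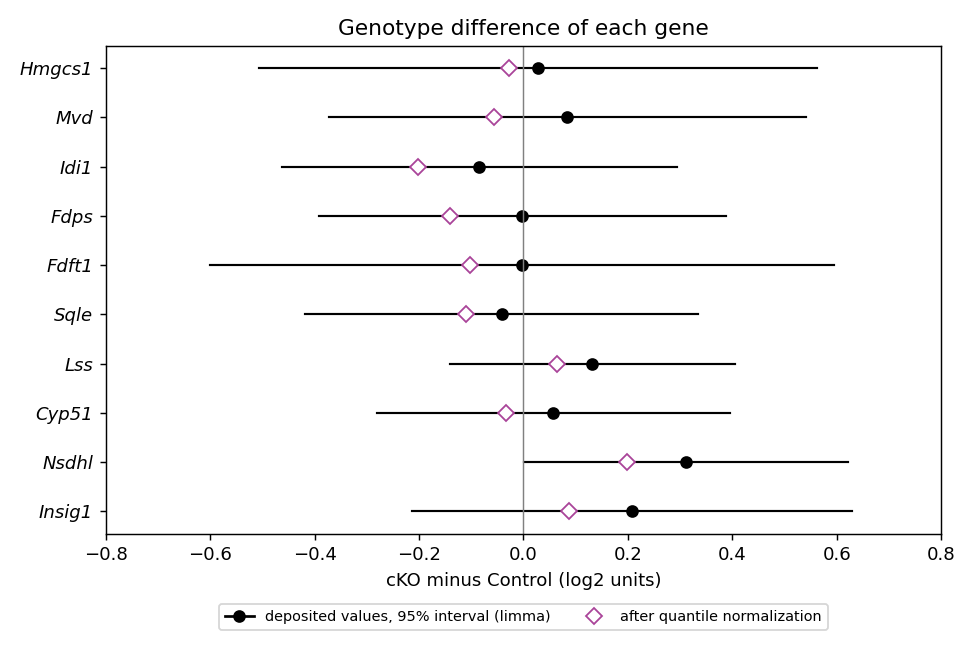
Filled circles give cKO minus Control in log2 units for each gene with its 95% limma interval (3 arrays in each group), and open diamonds give the difference after quantile normalization. Of the 10 intervals 9 include 0, and that of Nsdhl begins at 0.0007.

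The array cKO 1 stood apart on the deposited scale. It was the highest array for 7 of the 10 genes and the lowest for 0, and it was also the highest for 46.5% of all features tested. Its array median was 4.37, against at most 4.13 on the other arrays. Averaged over the 10 genes, the signal was 6.43, 6.45 and 6.46 on the Control arrays and 6.73, 6.40 and 6.42 on the cKO arrays, by replicate. Taken relative to the median of its own array, that mean was 2.36 in cKO 1 and 2.30 to 2.42 on the others, so cKO 1 no longer stood apart. After quantile normalization cKO 1 was the highest array for 4 genes and the lowest for 1.

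The mice carried numbers in 2 ranges, low for Control 1, Control 2 and cKO 1 (715, 716 and 733) and high for Control 3, cKO 2 and cKO 3 (776, 779 and 780). The labels do not say what a range marks. Within the low numbers all 10 genes were higher in cKO, where 79.7% of all features were, and within the high numbers 5 of 10, where 43.5% of all features were. The median difference of the 10 genes was 0.24 log2 units in the low range and -0.04 in the high range, beside 0.26 and -0.04 over all features. Thus 5 of the genes changed sign between the ranges: Hmgcs1 (0.47 and -0.29), Fdft1 (0.50 and -0.23), Idi1 (0.18 and -0.34), Sqle (0.23 and -0.21) and Cyp51 (0.25 and -0.10). Nsdhl (0.43 and 0.27), Insig1 (0.51 and 0.07), Lss (0.23 and 0.03), Mvd (0.01 and 0.23) and Fdps (0.05 and 0.07) kept theirs.

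Which genes changed sign depended on the scaling. The low range holds cKO 1 as its single cKO array, and after quantile normalization, tried after the values were seen, 4 of 10 genes were higher in cKO there, beside 46.4% of all features, and 5 of 10 in the high range, beside 56.2%. On that scale Hmgcs1 (0.20 and -0.14) and Fdft1 (0.22 and -0.15) again changed sign, while Lss (-0.07 and 0.12), Mvd (-0.31 and 0.28) and Fdps (-0.26 and 0.11) did so in the other direction. Sqle, Cyp51 and Idi1 were lower in both ranges on that scale, and Insig1 (0.22 and 0.13) and Nsdhl (0.14 and 0.33) were higher in both, as on the deposited scale.

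The difference between the ranges was itself tested. For the genotype by number range term in limma 0 of 10 genes passed the adjusted threshold, as did 0.00% of all features. Before adjustment 0 of 10 came under 0.05, where 17.2% of all features did. The smallest p was that of Hmgcs1, whose difference was larger within the low numbers by 0.76 log2 units (SE 0.29, unadjusted p = 0.0543, adjusted p = 0.298). That term sets a single cKO array in the low range and a single Control array in the high range against pairs of arrays, and for Hmgcs1 it was 0.34 (SE 0.37) after quantile normalization. For the number range itself, in a limma fit with genotype, 0 of 10 came under 0.05 before adjustment, where 13.5% of all features did, and 0.00% of all features passed after it. Without Control 3 the number under 0.05 before adjustment was 3, made up of Hmgcs1, Fdft1 and Insig1, beside 21.7% of all features. Of the 10 genes 9 were nominally higher in the low numbers, with Fdft1 at 0.41 (SE 0.22, adjusted p = 0.450) the most. After quantile normalization the mean of the 10 genes was 6.56, 6.54 and 6.54 on the low-numbered arrays Control 1, Control 2 and cKO 1 and 6.40, 6.40 and 6.45 on the high-numbered arrays Control 3, cKO 2 and cKO 3. On that scale the mean separated the number ranges and not the genotypes, a pattern seen in the values and given as a description. For the number range on quantile-normalized values, 0 of 10 genes came under 0.05 before adjustment in limma, beside 15.8% of all features.

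**Figure D3:**
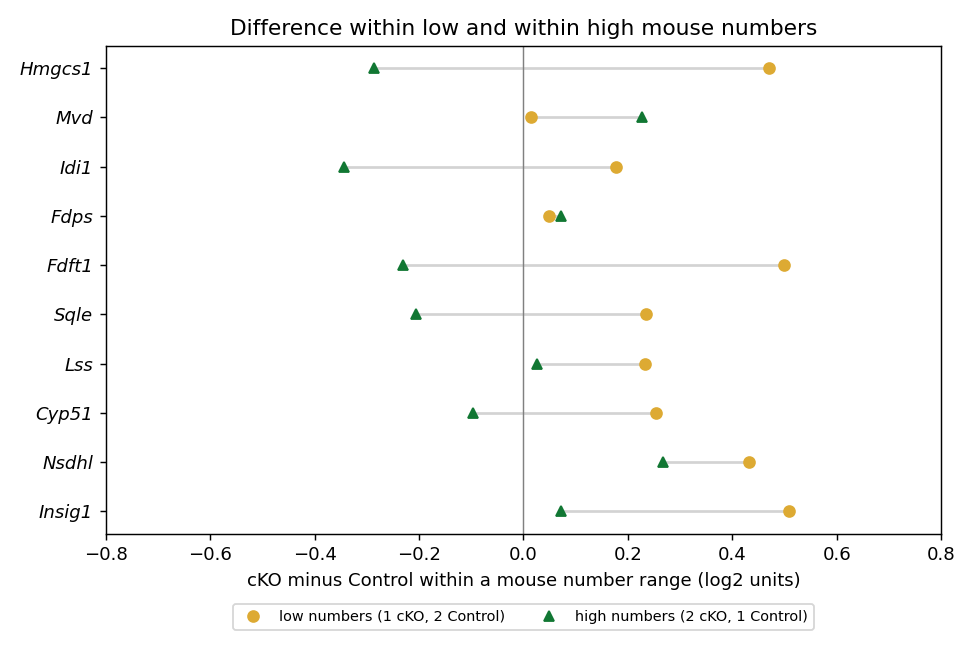
For each gene the horizontal axis gives cKO minus Control in log2 units, as a circle within the low mouse numbers (1 cKO against 2 Control arrays) and as a triangle within the high numbers (2 cKO against 1 Control array). The points of 5 genes lie on opposite sides of 0, and 1 array stands for a group in every point.

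The remaining enzymes of cholesterol synthesis were not called either. Of 13 genes listed, 8 were tested, and the others were not analysed here. By limma 0 of the 8 passed after adjustment, and 0 came under 0.05 before it, where 4.50% of all features did. Nominally 5 of 8 were higher and 3 lower, beside 65.8% higher over all features, with a median difference of 0.16 log2 units, and of 0.06 after quantile normalization. In 2 of the 8 all cKO arrays lay above all Control arrays, beside 8.95% of all features. In 1 of the 8 all cKO arrays lay below, and 11.0% of all features did not overlap in either direction. Mvk, the mevalonate kinase, was at 5.26, 5.12 and 5.41 in Control and at 5.63, 5.54 and 5.48 in cKO. Its groups did not overlap, and its difference was 0.29 (SE 0.13, unadjusted p = 0.0666). Ebp, a sterol isomerase, differed by 0.33 (SE 0.16), with overlapping groups. Ggps1, which makes the geranylgeranyl lipid of a side branch, had 7.27, 7.15 and 7.18 in Control and 6.79, 6.96 and 7.12 in cKO, lower in all cKO arrays, with a difference of -0.24 (SE 0.15).

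Genes that process SREBPs were next in the chain from site-1 protease to these targets. Of 6 listed 4 were tested, and the others were not analysed here. Mbtps1 itself differed by 0.21 log2 units (SE 0.21), and since no source used here says which part of the gene its feature covers, that value does not check the labels. Scap, the escort of the SREBPs, had 6.82, 6.60 and 6.95 in Control and 7.25, 7.31 and 7.38 in cKO. All cKO arrays of Scap lay above all Control arrays, also where its values were quantile normalized to a difference of 0.38. On the deposited scale Scap was 1 of 4 tested genes so placed, beside 8.95% of all features. The deposited difference of Scap was 0.52 (SE 0.16), with 0.54 in the low and 0.39 in the high number range. Scap had an unadjusted p of 0.0134 and an adjusted p of 0.999 by limma, with the adjusted p from 0.263 to 0.9999 over 17 alternatives. Its unadjusted limma p was under 0.05 in 16 of the 17. It was 0.0771 with the number range block on quantile-normalized values. Srebf2, which encodes SREBP2, stood at 6.01, 6.16 and 6.28 in Control and at 6.44, 6.19 and 6.54 in cKO, with a difference of 0.24 (SE 0.16) and overlapping groups. Insig2, which encodes the other INSIG protein, differed by 0.06 (SE 0.18).

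Other sterol-responsive genes, of uptake, transport and efflux, were not called. Of 14 listed 10 were tested, and the others were not analysed here. All 10 were nominally higher in cKO on the deposited scale, where 65.8% of all features were, and 3 after quantile normalization, where 49.1% were. The list's medians were 0.08 and -0.01 log2 units, beside 0.07 and -0.0038 over all features. By limma 0 passed the adjusted threshold, with 0 under 0.05 before adjustment, where 4.50% of all features were. The 3 with the smallest p were Apoe, a carrier of lipoprotein lipid, at 0.39 (SE 0.25), Npc1, which exports cholesterol from lysosomes, at 0.26 (SE 0.18), and Scarb1, a lipoprotein receptor, at 0.16 (SE 0.12). Those 3 were the genes that stayed higher after quantile normalization, at 0.26, 0.14 and 0.07.

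SREBPs also drive fatty acid synthesis, and of 10 such genes 8 were tested. Of these limma called 0 after adjustment and 0 at 0.05 before it, where 4.50% of all features were under 0.05. Scd1, a desaturase, was at 9.85, 10.34 and 11.43 in Control and at 11.41, 11.08 and 12.74 in cKO. Its difference of 1.21 log2 units (SE 0.56, unadjusted p = 0.06995) was the greatest of the lists named here for lipid genes, and the groups overlapped. Without cKO 3 the Scd1 difference was 0.71 and without Control 3 it was 1.65. The mean of its 2 features gave 1.03. Its unadjusted limma p came under 0.05 in 3 of 17 alternatives. It was 0.0184 without Control 3, 0.0471 without cKO 2 and 0.00758 with the replicate number as a block. Among the others it was 0.2005 without Control 1, 0.2055 without cKO 3 and 0.127 with the number range block. The lowest adjusted p of Scd1 over the 17 was 0.390. Acaca, the acetyl-CoA carboxylase, differed by -0.31 (SE 0.20) and Fads1, another desaturase, by 0.20 (SE 0.20).

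**Figure D4:**
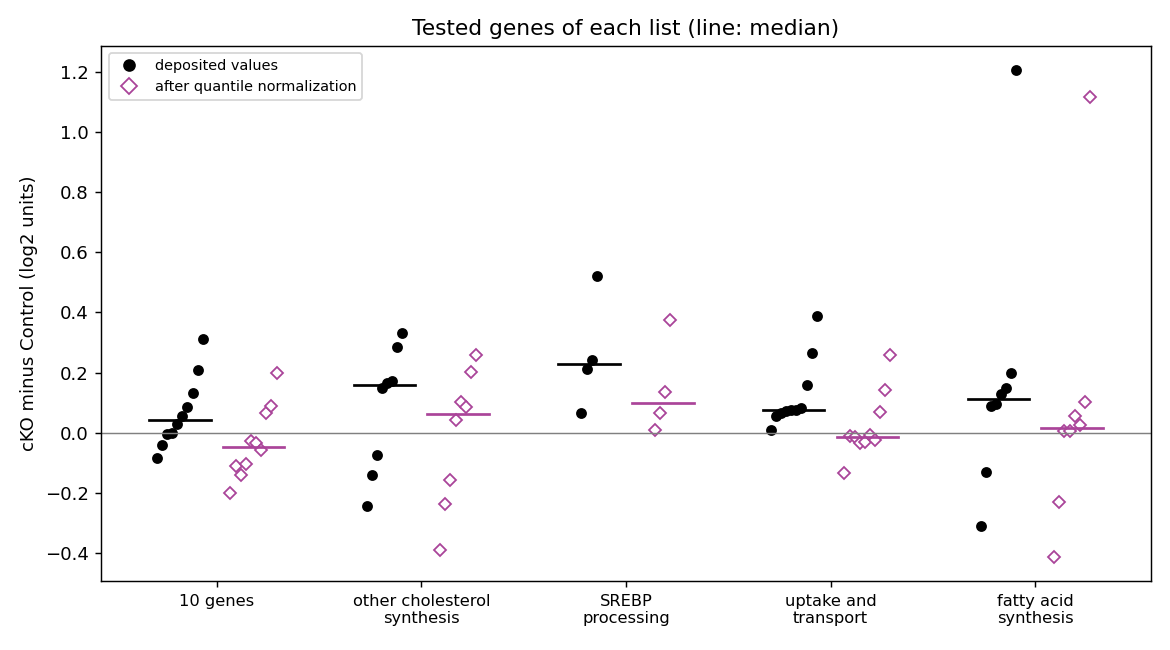
The vertical axis gives cKO minus Control in log2 units for every tested gene of 5 lists, as filled circles on the deposited scale and as open diamonds after quantile normalization, with a line at each median. The medians are 0.04, 0.16, 0.23, 0.08 and 0.11 on the deposited scale and -0.05, 0.06, 0.10, -0.01 and 0.02 after quantile normalization, in the order drawn.

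Among 18324 other genes tested, the pattern over the 6 arrays most like the mean of the 10 genes was that of Toe1, a nuclear RNA exonuclease (Pearson correlation 0.999). It was followed by Trav4n-3, Rps10-ps3, Dnal4 and Wdhd1, each at 0.996 or 0.997. All 5 were highest in cKO 1, as was the mean they were matched to. Toe1 ran from 5.49 to 5.60 on the other arrays and stood at 6.13 in cKO 1. These correlations rest on 6 arrays, share the scale of each array and were ranked by size, so they are a description.

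The labels were checked against defining genes. All 8 genes listed for muscle, some general such as Acta1 and Ckm, lay between 12.6 and 19.9 log2 units on every array. The list held no gene of fast fibres, so it checks muscle and not its slow type. Of 8 osteocyte and bone genes, 6, among them Dmp1, Sost, Phex and Mepe, were below the filter on low signal. Of 10 Schwann cell genes, whose cells make much cholesterol for myelin, 6 were tested, 4 higher and 2 lower, with a median difference of 0.07 and 0 at an unadjusted p under 0.05 in limma. In the same fit 6 of 9 tendon, 3 of 8 adipocyte, 0 of 9 macrophage and 0 of 6 fibroblast genes were under 0.05 before adjustment and higher in cKO, and 1 of 8 endothelial genes was lower, beside the 4.50% of all features. After adjustment 0 of these genes passed. All 9 macrophage genes were nominally higher, also after quantile normalization, where 65.8% and 49.1% of all features were. Of the 8 endothelial genes 7 were nominally lower and 1 higher, and after quantile normalization 8 were lower. The part of these cell types in the values of the 10 genes was not tested.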

How the data were processed

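The deposited table held 1 column for each array, read as log2 signals from the range of its values (1.92 to 19.9). How the submitters summarised and normalized them, in which software and on which build, and the log base, are not given in the sources used here. Of 72688 features, 6732 held no value and were left out. The platform annotation gave 1 symbol for 30604 features, several for 2146 and none for 33206. Entrez identifiers linked 22818 of the first kind to RefSeq (GRCm38.p6), which updated 827 symbols. A gene with more than 1 feature was read from the brightest on average.

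Features above the median of their array on at least 3 arrays were tested, 33334 in all, in a two-sided limma fit (version 3.58.1, R 4.3.3) with no block and with moderation of the variance along an intensity trend. Benjamini-Hochberg adjustment ran over all of them, and the fit was tested on simulated data. Errors of differences are limma standard errors over the 3 arrays of each group, whose number limits the precision. Signals of different features are not compared. The 3 lipid lists beside the SREBP genes are represented by members with an unadjusted p under 0.05, filled to 3 by the smallest p. The 5 genes of most like pattern were ranked by Pearson correlation over the 6 arrays. Alternatives were other normalizations, filters, eBayes settings, array weights, blocks, the mean of all features and leaving out each array. Python 3.11.15, pandas 2.3.3 and matplotlib 3.10.9 made tables and plots. The values within number ranges and the overlap of groups after quantile normalization are alternatives chosen once the results were known. The members, lists and tests were chosen with earlier results of these data known.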

Additional observations from a re-analysis of the deposited data

How the results depend on the processing

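With 3 mice in each group, differences of the size of the intervals given could not be told from 0. Each of the 10 genes stayed without an adjusted call under the 16 or 17 alternatives run, with 0.367 the lowest adjusted p (Nsdhl, array weights). Over all features the count past an adjusted p of 0.05 was 0, and 0 to 14 with an array left out, the 14 without Control 3. The count of the 10 genes at an unadjusted p under 0.05 was 1, beside 4.50% of all features. It was 0 after quantile normalization, with median centring, with no filter, with the number range block on quantile-normalized values, and 0 with each array left out in turn. With the replicate block it was also 0 and the count past the adjusted threshold 0. Whether the replicate numbers of the titles pair the mice was not settled. Same-numbered deviations from the group means correlated at 0.128, -0.204 and 0.205, and the other combinations of a Control and a cKO array at -0.405 to 0.387. Deviations from a mean of 3 arrays are tied to each other, so these correlations cannot decide it. The count of genes higher in cKO was 6 of 10, 3 after quantile normalization and 4 to 9 with an array left out. The 8 other enzymes gave 1 gene (Mvk) at an unadjusted limma p under 0.05 with array weights, beside 12.8% of all features. They gave 1 (Ebp) with the number range block, beside 6.01%. With an array left out they gave 0 to 1, the 1 being Lbr without cKO 1, beside 6.18%. The number range count was 0, beside 13.5% of all features, and 0 to 3 with an array left out, the 3 beside 21.7%. The genotype by number range count was 1 (Hmgcs1) with no intensity trend, beside 16.9% of all features, and 1 with robust eBayes, beside 16.7%. That term was not run with an array left out or with array weights.

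Signs turned for 7 of the 10 genes and for Insig2 and Fads1, none of them called. After quantile normalization Hmgcs1 was -0.0282, Cyp51 -0.034 and Mvd -0.0572. With median centring Hmgcs1 was -0.0301 and Cyp51 -0.0008. With array weights Hmgcs1 was -0.133, Mvd -0.0726 and Fads1 -0.0006. With the number range block Sqle was 0.0138, Fdft1 0.1345 and Fdps 0.0599, and where quantile normalization was added Cyp51 was -0.0226, Fdft1 0.0341 and Mvd -0.0126. With an array left out Hmgcs1 ran from -0.162 to 0.130, Sqle from -0.171 to 0.0839, Cyp51 from -0.0227 to 0.118, Fdft1 from -0.261 to 0.199, Fdps from -0.0689 to 0.1115, Idi1 from -0.172 to 0.0009, Mvd from -0.0181 to 0.259 and Insig2 from -0.0345 to 0.139. The cause was not tested.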
